A study of Homo sapiens with 16 samples.

Results

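The genes described here are 31 human protein-coding genes of glucose uptake, glycolysis, pyruvate use and the pentose phosphate path, out of 20037 placed on chromosomes 1 to 22, X and Y with RefSeq coordinates. They were taken from a list of gene names, and all 31 were found in the gene table. Each was scored in 5 deposited peak lists for a boundary peak, meaning a peak whose summit (the base of strongest signal) lies at most 1 kb from an end of the gene, on either side. The strand, which tells a gene's 5′ end (where transcription starts) from its 3′ end (where it stops), was known for 28 of the 31.

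Chromatin immunoprecipitation with sequencing (ChIP-seq), which maps where a protein sits on DNA, was performed in the established human embryonic kidney line HEK293T, wild type per the labels. The study's question was whether starvation, or the movement or loss of HDGF, goes with a new distribution of INTS13 along the genome. HDGF was mapped in cells given a control depletion and in cells kept in glucose-free medium for 24 h, with the same Proteintech antibody. INTS13 was mapped in control-depleted cells and in cells treated with siPOOLs (pooled small interfering RNAs) against HDGF for 72 h, with a Bethyl Laboratories antibody, and in glucose-starved cells with a Proteintech antibody. Antibody and treatment therefore cannot be told apart in the INTS13 starvation comparison. The labels do not say that the starved cells also received a control depletion. They give 2 replicates per group, but each group has 1 deposited list. The values given here thus carry no replicate error, and conditions could not be tested against each other. The extent of the HDGF depletion cannot be read from INTS13 lists.

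Glycolysis splits glucose into pyruvate in the cytosol. Hexokinase, phosphofructokinase and pyruvate kinase catalyse its largely irreversible steps, and lactate dehydrogenase recycles the cofactor that keeps it running. Pyruvate either leaves as lactate or enters mitochondria, where the pyruvate dehydrogenase complex converts it to acetyl-CoA, while the pentose phosphate path diverts glucose phosphate to NADPH and ribose. Most of these genes are expressed broadly and at high level in proliferating cell lines. HDGF binds chromatin through its PWWP domain, a module known for reading methylated histones in transcribed gene bodies. INTS13 is a subunit of the Integrator complex, which cleaves nascent RNA at small nuclear RNA genes and at paused polymerase.

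Lists differed in length and in depth. For HDGF they held 106674 peaks in control and 68138 in starved cells, and for INTS13 they held 31233 in control, 105994 in HDGF-depleted and 15639 in starved cells. The background implied by the authors' folds and p-values, in reads per position before scaling, was lowest in the depletion list (4.2) and highest in the INTS13 starvation list (15.2). The HDGF lists had 6.69 (control) and 9.84 (starved), and the INTS13 control list had 6.4. The weakest peak of the HDGF lists held 16 reads in control and 24 in starved cells, and the weakest INTS13 peaks held 17, 12 and 40 reads in control, depleted and starved cells. Folds are the authors' enrichment over background at the summit and were ranked only within their own list, whose median fold lay between 2.86 and 3.27. The folds of each list fit a single background mean. A background that differs between positions, such as that of the input, was therefore not taken out of them. An absent peak means that no interval was called at that depth, not that the protein was absent.

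A selection of the 15 member promoters that a called peak overlapped is printed first, because the results return to these start sites. The others, among them those of HK1, PFKM, PGAM1, PFKFB4 and SLC16A3, are not printed. They are RefSeq windows of 300 bases on GRCh38.p14, from 250 bases before to 50 after a listed start site, written 5′ to 3′ on the gene's strand. Capitals mark the GC box GGGCGG on either strand (CCGCCC is its reverse complement). PKM (chr15:72231141-72231440, minus strand) is shown because it was the only member whose promoter window a called INTS13 interval overlapped in both control and starved cells. ALDOA has 3 listed starts, of which the first (chr16:30064029-30064328, plus strand) lay under HDGF in both conditions and the last (chr16:30065510-30065809) under HDGF and INTS13 in starved cells. TPI1 (chr12:6867281-6867580, plus strand) lay under INTS13 after HDGF depletion. The second LDHA start (chr11:18396101-18396400, plus strand) lay under HDGF in both conditions.
PKM: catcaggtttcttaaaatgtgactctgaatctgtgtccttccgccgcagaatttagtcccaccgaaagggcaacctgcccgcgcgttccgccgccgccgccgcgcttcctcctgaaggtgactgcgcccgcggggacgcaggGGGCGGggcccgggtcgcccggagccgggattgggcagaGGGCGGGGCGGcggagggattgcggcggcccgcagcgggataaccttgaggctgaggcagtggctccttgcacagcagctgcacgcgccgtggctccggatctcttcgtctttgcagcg
ALDOA, first start: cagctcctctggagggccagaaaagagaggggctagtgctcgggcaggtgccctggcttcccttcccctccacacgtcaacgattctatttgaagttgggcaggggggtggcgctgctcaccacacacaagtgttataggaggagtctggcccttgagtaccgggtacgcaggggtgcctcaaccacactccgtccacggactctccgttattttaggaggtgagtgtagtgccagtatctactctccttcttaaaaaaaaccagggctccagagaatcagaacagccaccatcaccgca
ALDOA, last start: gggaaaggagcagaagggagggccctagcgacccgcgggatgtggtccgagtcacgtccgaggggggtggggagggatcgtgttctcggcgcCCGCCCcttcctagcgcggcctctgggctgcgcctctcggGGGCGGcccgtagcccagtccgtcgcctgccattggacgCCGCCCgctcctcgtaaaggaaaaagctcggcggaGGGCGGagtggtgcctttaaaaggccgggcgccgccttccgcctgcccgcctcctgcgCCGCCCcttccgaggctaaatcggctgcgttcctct
TPI1: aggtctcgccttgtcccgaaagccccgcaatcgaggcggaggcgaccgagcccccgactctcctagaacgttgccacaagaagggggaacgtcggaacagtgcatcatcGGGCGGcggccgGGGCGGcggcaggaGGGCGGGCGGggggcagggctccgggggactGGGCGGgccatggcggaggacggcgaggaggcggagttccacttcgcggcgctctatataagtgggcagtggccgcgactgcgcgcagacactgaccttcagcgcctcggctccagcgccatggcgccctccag
LDHA, second start: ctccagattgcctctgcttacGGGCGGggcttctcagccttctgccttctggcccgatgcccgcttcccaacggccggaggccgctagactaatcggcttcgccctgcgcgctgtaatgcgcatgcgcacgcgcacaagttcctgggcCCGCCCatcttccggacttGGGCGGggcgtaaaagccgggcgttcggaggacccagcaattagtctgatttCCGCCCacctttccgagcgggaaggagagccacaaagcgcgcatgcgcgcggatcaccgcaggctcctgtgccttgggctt
The first ALDOA start held 0 GC boxes and a GC content of 56%, whereas the last held 5 and 70.7%. PKM held 3, of which a pair shares 1 base, TPI1 held 5 and the second LDHA start held 4. Over the 54 listed promoters of the 28 members with an entry, the GC box was found in 37 (68.5%), against 56.3% of all 22199 promoters of protein-coding genes. The hypoxia element core ACGTG was found in 21 (38.9%, against 23%), its other form GCGTG in 23 (42.6%, against 43%), the E-box CACGTG in 7 (13%, against 8.34%) and the TATA box TATAAA in 4 (7.41%, against 9.47%), on both strands. ACGTG lies inside CACGTG, so the counts of those 2 motifs overlap. The median GC content was 69.2% in the members' promoters and 62.3% in all promoters. The 15 member promoters overlapped by a peak in any list had a median of 65.3%, and the 39 without one 70.7%. A gene with several listed starts was counted once for each, and some windows of a gene share bases, as at HK1. At PFKM a single INTS13 peak overlapped several windows. The windows are therefore not independent in these shares and medians. These matches describe the letters of the windows and not sites of binding.

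HDGF lay at the ends of the glucose-use genes more often than at those of all genes in control cells, and INTS13 did so after HDGF depletion. HDGF control peaks marked 15 of the 31 members (48.4%, exact 95% interval 30.2 to 66.9), against 19.3% of all protein-coding genes. In starved cells HDGF marked 11 (35.5%, 19.2 to 54.6; all genes 21.7%). INTS13 marked 2 members in control cells (6.45%, 0.791 to 21.4; all genes 4.77%), 12 after HDGF depletion (38.7%, 21.8 to 57.8; all genes 19.1%) and 3 in starved cells (9.68%, 2.04 to 25.8; all genes 6.71%). The intervals cover counting error only and treat genes as independent. The share of all genes lay outside the members' interval for HDGF in control cells and for INTS13 after depletion, and inside it in the other 3 lists. This did not hold with every list cut to its 15639 strongest peaks. HDGF then marked 4 members in control cells (12.9%, 3.63 to 29.8; all genes 3.77%) and INTS13 marked 0 after depletion (0%, 0 to 11.2; all genes 3.73%), and the share of all genes lay inside the interval in both.

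**Figure D1:**
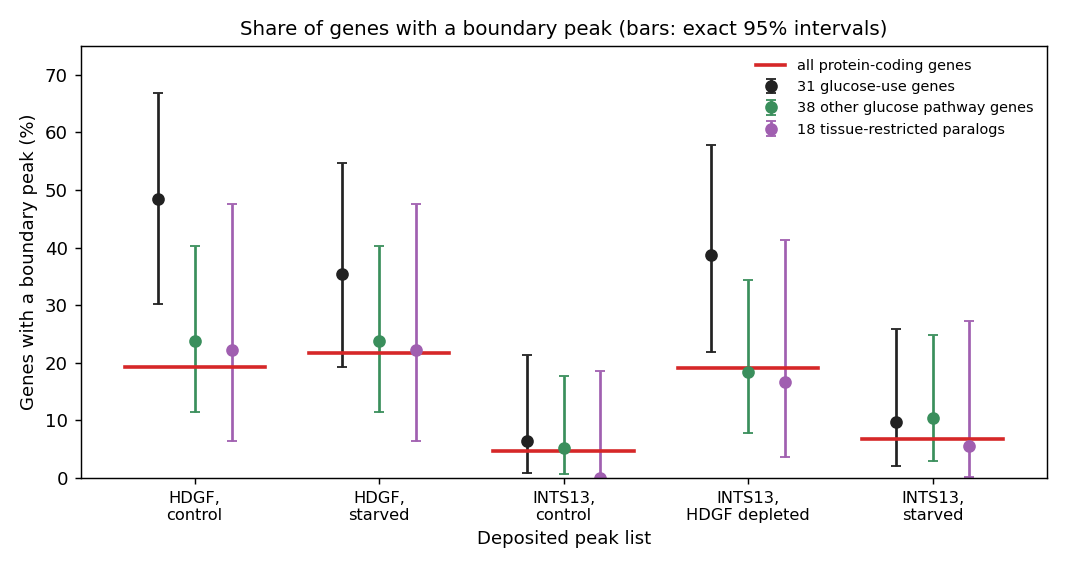
Share of genes with a boundary peak (vertical axis, %) in each of the 5 deposited lists (horizontal axis), for the 31 glucose-use genes, 38 other glucose pathway genes and 18 tissue-restricted paralogs, with exact 95% intervals as bars and the share of all 20037 protein-coding genes as red lines. The glucose-use genes stand at 48.4% in the HDGF control list and 38.7% in the INTS13 depletion list, where the red lines stand at 19.3% and 19.1%.

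The members lay in neighbourhoods rich in peaks, with a median of 11 HDGF control summits in the 100 kb on either side of the gene, against 4 for all genes. In neighbourhoods with at least 11, HDGF marked 13 of 17 members, against 44.1% of all such genes, and in sparser ones 2 of 14, against 7.39%. For INTS13 after depletion the medians were 12 and 5 summits, and the counts were 9 of 16 members in denser neighbourhoods (all genes 48.3%) and 3 of 15 in sparser ones (all genes 8.3%). In starved cells HDGF marked 10 of 16 members with at least the members' median of 4 summits (all genes 47%) and 1 of the other 15 (all genes 3.3%). The part of neighbourhood density in the members' share was not tested beyond this split. Chromosomes 1, 13, 22 and X held between 46.5% (HDGF, starved cells) and 79.4% (INTS13, control cells) of the peaks of a list and 7 of the 31 members. On these chromosomes HDGF marked 3 of 7 members in control cells (all genes 32%) and 1 in starved cells (35.3%), and INTS13 marked 0, 3 and 0 in control, depleted and starved cells (14%, 35.7% and 14.4%). On the other chromosomes HDGF marked 12 of 24 members in control cells (50%, 29.1 to 70.9; all genes 16.4%) and 10 in starved cells (41.7%, 22.1 to 63.4; 18.6%). INTS13 marked 2 of the 24 in control cells (8.33%, 1.03 to 27; 2.67%), 9 after depletion (37.5%, 18.8 to 59.4; 15.4%) and 3 in starved cells (12.5%, 2.66 to 32.4; 4.96%). On these other chromosomes the share of all genes thus lay below the members' interval in both HDGF lists and in the INTS13 depletion list. By length, HDGF in control cells lay at 6 of the 7 members under 10 kb (20.2% of all genes that short) and at 9 of the 24 longer ones (19% of all longer genes).

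Across lists the members ranged from PKM, which had a boundary peak in all 5 (1.42% of all genes did), and ALDOA, with 4 (2.41% of genes), to 12 members with a boundary peak in no list (38.7%, against 61.4% of genes). PFKL, TPI1, GAPDH, PGAM1, PFKFB4, TKT and TALDO1 had a peak in 3 lists (5.13% of genes). ENO1, SLC16A1 and PDHB had a peak in 2 (9.78%), and SLC2A1, PFKM, PFKP, PGK1, ENO2, SLC16A3 and PGD in 1 (19.9%). Ranked by fold within their list, the members' boundary peaks had a median percentile between 49.7 (INTS13 after depletion) and 74.3 (HDGF in control cells). Boundary peaks of −log10 q 5 or more lay at 3 members for HDGF in control cells (ALDOA, TPI1 and PKM; 2.81% of genes), at 3 for HDGF in starved cells (PFKL, PKM and TKT; 2.9%) and at 2 for INTS13 in starved cells (PFKL and PKM; 2.21%). No member had such a peak of INTS13 in control cells (1.51% of genes) or after depletion (2.03%).

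**Figure D2:**
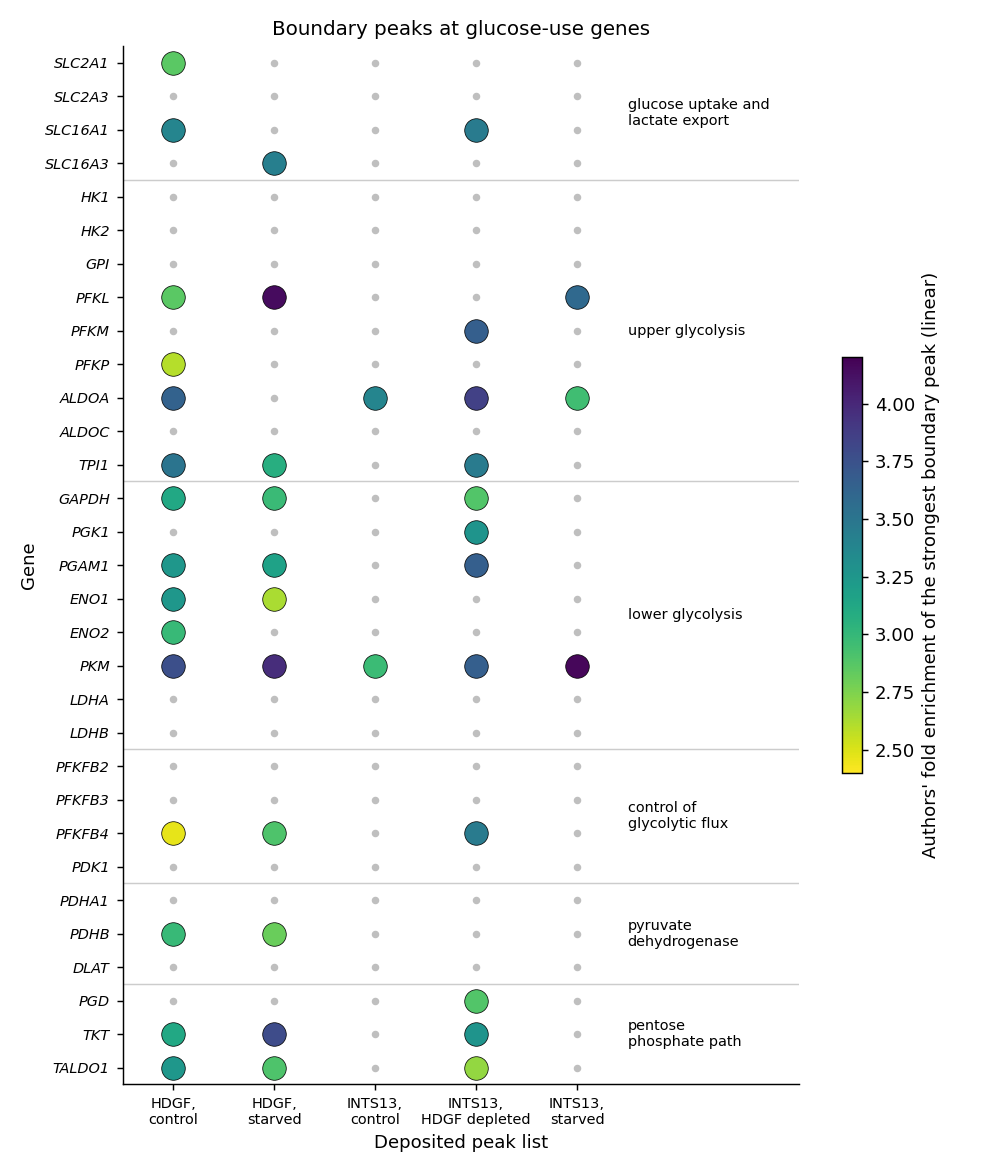
Boundary peaks at the 31 glucose-use genes (vertical axis, ordered by role) in the 5 lists (horizontal axis). Large circles mark a boundary peak, coloured by the authors' linear fold of the strongest one in that list, and small grey dots mark none. PKM has a circle in every column, ALDOA in 4, and the INTS13 control column has 2.

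Glucose uptake and lactate export were represented by 4 transporters. HDGF marked 2 in control cells (50%, interval 6.76 to 93.2), against 19.3% of all genes. In starved cells it marked 1 (25%, 0.631 to 80.6), against 21.7% of all genes. SLC2A1, which encodes the widespread glucose transporter GLUT1 (chromosome 1, 42925353 to 42958868), had an HDGF control peak of fold 2.86 with its summit 219 bp inside the 3′ end. In starved cells its nearest HDGF summit to an end lay 2631 bp away, although 4 summits, of fold up to 3.16, still lay in the gene or within 1 kb of it. SLC16A1, the lactate and pyruvate carrier MCT1 (chromosome 1, 112911847 to 112956196), carried 31 HDGF control summits that covered 46.5% of the gene, among them 2 boundary summits of fold 3.38 and 2.99 at its lower-coordinate end. In starved cells 1 inner peak of fold 3.88 was called and covered 2.16% of the gene. Its flanks, the 100 kb on each side, differed in the same direction, with 17.4% covered in control and 3.85% in starved cells. INTS13 was called at SLC16A1 at 2 inner positions in control cells and at 9 after HDGF depletion, including a boundary peak of fold 3.46, at the opposite end from HDGF. SLC16A3, the lactate exporter MCT4 (chromosome 17, 82217934 to 82240086), went the other way. It had 0 HDGF summits in the gene or within 1 kb in control cells, the nearest 1266 bp from an end, and 9 in starved cells, which covered 20.6% of it. The strongest, fold 3.43, ran from 82239560 to 82241522 over the 3′ end. It overlapped a control peak whose summit was the one 1266 bp from that end, so SLC16A3 counted as marked in both conditions with a window of 2500 bp. Its flanks were covered at 6.3% in control and 7.92% in starved cells. SLC2A3, a high-affinity glucose transporter best known from neurons, had no boundary peak in any list. Its nearest HDGF control summit lay 2490 bp from an end.

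In upper glycolysis, HDGF marked 4 of 9 members in control cells (ALDOA, PFKL, PFKP and TPI1), or 44.4% (interval 13.7 to 78.8) against 19.3% of all genes. In starved cells it marked 2 (PFKL and TPI1), or 22.2% (2.81 to 60) against 21.7% of all genes. Both intervals hold the share of all genes. PFKL, the liver-type subunit of phosphofructokinase, which commits sugar phosphate to glycolysis (chromosome 21, 44300053 to 44327373), had 12 HDGF summits in each condition, yet the intervals around them covered 16.2% of the gene in control cells and 86.7% in starved cells. Their strongest fold was 3.51 in control and 4.60 in starved cells. At the 3′ end the control peak was 327 bp wide with fold 2.86, and the starved peak that overlapped it was 2534 bp wide with fold 4.15, at percentile 98.4 of its list. INTS13 covered 2.04% of PFKL in control cells, 7.87% after HDGF depletion and 28.1% in starved cells, with 2, 5 and 14 summits. The flanks differed in the same direction. HDGF covered 2.16% of them in control and 19.2% in starved cells, and INTS13 covered 1.82%, 8.43% and 8.88% in control, depleted and starved cells, so the difference was not limited to PFKL.

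ALDOA, the aldolase that splits fructose bisphosphate (chromosome 16, 30064279 to 30070420), lay in the most densely covered neighbourhood of the 31. HDGF covered 73.7% of the gene and 41.7% of its flanks in control cells, and 95.8% and 45.7% in starved cells. The control list had a boundary peak of fold 3.64 from 30062733 to 30064859, over the first start site printed above. In starved cells a peak of fold 4.78 from 30063290 to 30067851 covered the same start, but its summit lay 2775 bp downstream, so the loss of the boundary call was a shift of the summit within covered DNA. INTS13 had 3 summits at ALDOA in control cells, 7 after HDGF depletion and 5 in starved cells, covering 8.71%, 44.2% and 29.8% of the gene. Its strongest boundary peak lay 401 bp past the 3′ end in control cells (fold 3.38), 500 bp inside the 5′ end after depletion (fold 3.85) and 953 bp inside the 3′ end in starved cells (fold 2.95). The starved INTS13 summits were slightly nearer to the end of an overlapping locus, LOC112694756, than to that of ALDOA.

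TPI1, which interconverts the triose phosphates (chromosome 12, 6867420 to 6870948), had 2 HDGF boundary summits in each condition, all at the 3′ end, with strongest folds of 3.51 in control and 3.07 in starved cells. In each condition 1 of them was nearer to an end of SPSB2 than to one of TPI1. INTS13 appeared at TPI1 after HDGF depletion at both ends, with fold 3.46 at a summit 90 bp from the start site printed above and fold 3.08 past the 3′ end. Of the other phosphofructokinase subunits, PFKM (muscle type) had a boundary peak of INTS13 after depletion, with fold 3.66, 193 bp from a listed start. PFKP (platelet type) had an HDGF control peak of fold 2.60, 926 bp inside its 3′ end, and the nearest HDGF summit to an end lay 5718 bp away in starved cells. HK1 and HK2, the hexokinases that trap glucose in the cell, GPI, which isomerises glucose phosphate, and ALDOC, the aldolase known from brain, had no boundary peak in any list. HK1 nonetheless carried 13 HDGF summits inside the gene in control cells and 11 in starved cells, some at internal start sites: a control peak of fold 3.25 had its summit 156 bp from a listed start, and a starved peak of fold 2.63 was 179 bp from another. ALDOC lay far from HDGF, with the nearest control summit 145 kb from an end.

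In lower glycolysis, HDGF marked 5 of 8 members in control cells (GAPDH, PGAM1, ENO1, ENO2 and PKM), or 62.5% (interval 24.5 to 91.5) against 19.3% of all genes. In starved cells it marked 4, the same without ENO2, or 50% (15.7 to 84.3) against 21.7% of all genes. PKM, which encodes the M1 and M2 forms of pyruvate kinase (chromosome 15, 72199029 to 72231591), was covered by HDGF over 50.1% of its length with 27 summits in control cells and over 29.8% with 20 in starved cells. Its flanks were covered at 11.4% and 5.79%. The HDGF peak near its 3′ end was present in both lists, with fold 3.77 in control and 3.97 in starved cells, while at the 5′ end the control peak lay upstream (fold 3.51, 720 bp outside the gene) and the starved peak lay 69 bp from the start site (fold 2.45). INTS13 lay at that start in control cells, with fold 2.97 and 21 reads at a summit 59 bp away, and in starved cells, with fold 4.17, −log10 q 8.48 and 70 reads at a summit 26 bp away. After HDGF depletion the boundary peak of INTS13 was at the other end of the gene (fold 3.66, summit 72199299), 98 bp from an HDGF control summit. A further INTS13 summit after depletion lay at -1034 bp from the 5′ end (negative is upstream), just outside the window, within the upstream HDGF control peak. INTS13 covered 2.83% of PKM in control, 16.2% in depleted and 3.97% in starved cells.

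GAPDH, which oxidises glyceraldehyde phosphate and makes NADH (chromosome 12, 6534517 to 6538371), changed little by these measures. HDGF covered 40.3% of it in control and 41.7% in starved cells, with 4 summits in each and strongest boundary folds of 3.12 and 2.98 at the 3′ end. The INTS13 depletion peak past its 3′ end, of fold 2.89, was nearer to IFFO1. PGAM1, phosphoglycerate mutase (chromosome 10, 97426191 to 97433444), kept its HDGF peak at the 3′ end, with fold 3.25 in control and 3.16 in starved cells, but the covered share of the gene was 58.4% in control and 15.1% in starved cells. ENO1, the main enolase of dividing cells (chromosome 1, 8861000 to 8878686), showed the same pattern. Its 3′ peak had its summit 14 bp outside the gene in control cells (fold 3.25) and 160 bp outside in starved cells (fold 2.63), and HDGF covered 37.2% and 10.6% of the gene. ENO2, the enolase known from neurons, had an HDGF control peak of fold 2.99 at its 3′ end. In starved cells its nearest summit was 1207 bp from an end, just outside the window, and coverage was 4.39% in control and 7.42% in starved cells.

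PGK1, which makes ATP from bisphosphoglycerate, had a boundary peak of INTS13 after depletion alone, with fold 3.27, 653 bp inside its 5′ end. LDHA, which turns pyruvate into lactate (chromosome 11, 18394563 to 18408425), had no boundary peak, but this rested on the window. Its nearest HDGF summits to an end lay 1014 bp away in control and 1155 bp in starved cells. Measured from the second start site printed above, the HDGF summits lay 272 bp downstream in control (fold 3.25) and 210 bp downstream in starved cells (fold 2.54). HDGF covered 20.6% of LDHA in control and 4.98% in starved cells. LDHB, the heart-type subunit, had 2 HDGF summits in control cells, 0 in starved cells and 0 INTS13 summits. GAPDH, PGK1, PGAM1, ENO1, LDHA and TPI1 have processed pseudogenes elsewhere in the genome, and how reads from such copies were assigned is not given in the sources used here.

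Among the genes that control glycolytic flux, PFKFB4, a bifunctional enzyme that makes and removes a sugar phosphate activator of phosphofructokinase (chromosome 3, 48517684 to 48563136), was the only 1 of 4 with a boundary peak. HDGF lay at its 3′ end in control cells (fold 2.47) and at its 5′ end in starved cells (folds 2.90 and 2.81, the former nearer to UCN2). It had 4 HDGF summits in control and 16 in starved cells, which covered 1.63% and 14.6% of the gene, and its flanks were covered at 5.22% and 24.8%. INTS13 covered 10.2% of PFKFB4 after HDGF depletion and 0% in control cells, with a boundary peak of fold 3.46 at the 3′ end. PFKFB3, the isoform known from proliferating cells, had 12 HDGF summits in control and 16 in starved cells, the nearest to an end 1248 bp and 2189 bp away. PFKFB2 (nearest HDGF control summit 10325 bp away) and PDK1, the kinase that switches off pyruvate dehydrogenase (3322 bp away), had no boundary peak in any list. The same was true of 61.4% of all genes.

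Of the 3 pyruvate dehydrogenase genes, PDHB, the beta subunit of the first enzyme of the complex (chromosome 3, 58427630 to 58433832), had HDGF upstream of its 5′ end in control cells (fold 2.99, 735 bp outside) and in starved cells (fold 2.81, 943 bp outside). The share of PDHB covered was 22.1% in control and 4.5% in starved cells. PDHA1, the alpha subunit, and DLAT, the acetyltransferase of the complex, had 0 summits in the gene or within 1 kb in all 5 lists. The nearest HDGF control summit lay 1721 bp from DLAT and 767 kb from PDHA1.

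The pentose phosphate members were PGD, an oxidative enzyme that yields NADPH, and TKT and TALDO1, which shuffle sugars between this path and glycolysis. TKT (chromosome 3, 53224712 to 53256022) had HDGF at its 3′ end in control cells, with folds of 3.12 and 2.99. In starved cells it had 3 summits there, the strongest of fold 3.79 at percentile 96.2 of its list, and a further peak of fold 2.81 398 bp upstream of its start. HDGF covered 23.8% of TKT in control and 40.4% in starved cells, with flanks at 9.81% and 11.6%. INTS13 covered 0% of TKT in control cells, 16.4% with 15 summits after HDGF depletion and 1.48% in starved cells. TALDO1 (chromosome 11, 747464 to 765012) kept an HDGF peak at its 3′ end, with fold 3.25 in control and 2.90 in starved cells. Coverage of the gene was 7.86% and 1.6%, although its flanks were covered at 5.18% and 15.5%. All 3 had a boundary peak of INTS13 after depletion (100%, interval 29.2 to 100), against 19.1% of all genes. None had one in control cells (all genes 4.77%). After depletion the strongest had fold 2.89 and 14 reads at PGD, 3.27 and 16 at TKT, and 2.69 and 13 at TALDO1. The weakest peak of the depletion list held 12 reads. With −log10 q of at least 3, or with lists of equal length, none of the 3 genes was marked by INTS13 after depletion. With a window of 500 bp, TKT was the only one of them still marked.

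The first comparison asked where HDGF lay after glucose starvation. A gene marked in both lists is called kept, in the control list alone lost, and in the treated list alone gained. Of the 31 members, 10 had a boundary peak in both lists (10.1% of all genes), 5 in control cells alone (ALDOA, ENO2, PFKP, SLC16A1 and SLC2A1; 9.18%) and 1 in starved cells alone (SLC16A3; 11.5%). Of the members with a control peak, 66.7% had one in starvation (interval 38.4 to 88.2), against 52.5% of all genes with a control peak. At 9 of the 10, PFKFB4 excepted, the boundary peaks of both lists overlapped by at least 1 base, as they did at 57.5% of all 2029 genes marked in both. Coverage of the whole gene was higher in starved cells at 9 members (22.9% of genes), lower at 19 (33.1%) and equal at 3. Called HDGF intervals covered 2.83% of all gene sequence in control and 1.74% in starved cells, so the lower shares at SLC16A1, PGAM1, ENO1 and LDHA in starvation were in the direction of the whole list, and the higher shares at PFKL, SLC16A3, PFKFB4 and TKT were against it. At least 10% of the gene was covered at 11 members in control cells (12.5% of genes) and at 10 in starved cells (13%).

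**Figure D3:**
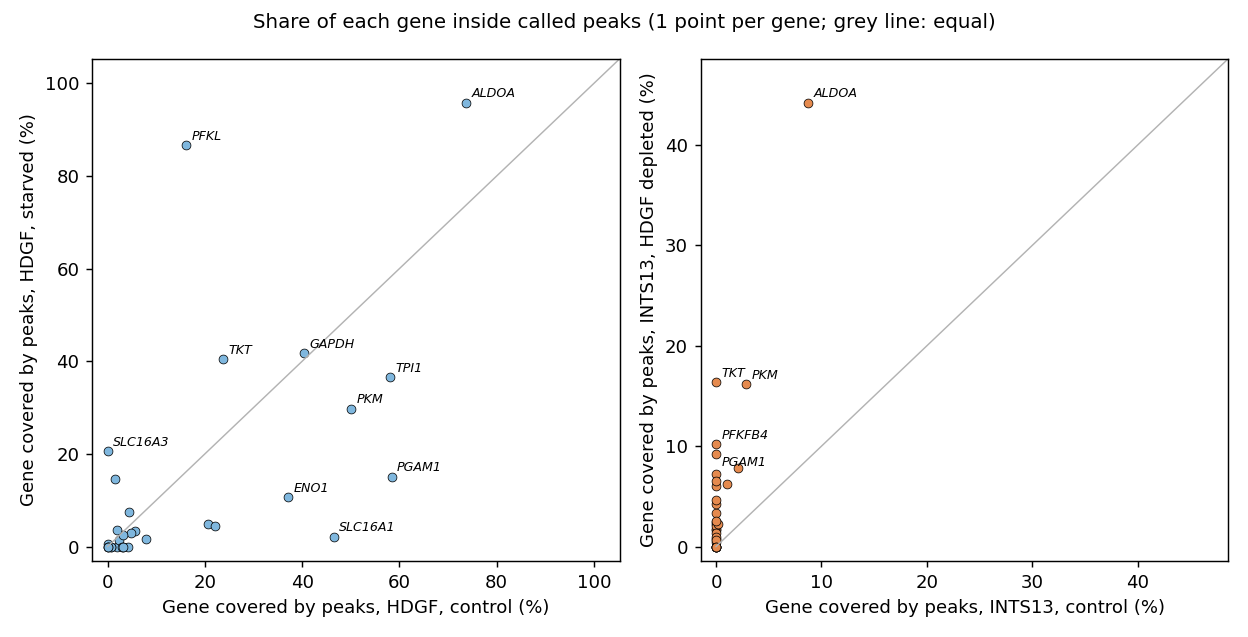
Share of each member covered by called peaks (%), for HDGF in control cells (horizontal axis) against starved cells (vertical axis, left) and for INTS13 in control cells against HDGF-depleted cells (right). Each point is a gene and the grey line marks equal shares. PFKL (16.2% and 86.7%) stands far above the line at left and SLC16A1 (46.5% and 2.16%) far below it, and no point lies below the line at right.

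In control cells the HDGF boundary summits lay mostly at the 3′ ends of these genes. Among the 28 members of known strand, 12 had an HDGF control summit within 1 kb of the 3′ end (42.9%, interval 24.5 to 62.8; all genes 14.3%) and 3 within 1 kb of the 5′ end (10.7%, 2.27 to 28.2; all genes 10.4%). Of the 14 with either, 11 had it at the 3′ end alone (78.6%, 49.2 to 95.3; all marked genes 48.7%). In starved cells 9 had a 3′ summit (32.1%; all genes 14.9%) and 6 a 5′ summit (21.4%, 8.3 to 41; all genes 13.3%), and 5 of 11 had the 3′ end alone (45.5%; 40.3%). PFKFB4, PFKL, PGAM1 and TKT had a 5′ summit in starved cells and not in control cells, while ALDOA had one in control cells only. The PFKL summit, 753 bp outside the gene, was nearer to an end of AIRE (652 bp). The PFKFB4 summits at the 5′ end lay 5389 and 6209 bp from a listed start, where another starved peak had its summit at -298 bp. At PGAM1 the difference rested on the 5′ end used, because a listed start inside the gene had HDGF in both conditions. Its summits there lay at -245 bp in control (fold 3.12) and at -216 bp in starved cells (fold 3.16), where negative is upstream.

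The direction of the starvation comparison depended on which end was counted. Around all RefSeq start sites listed for a gene, internal ones included, HDGF summits lay within 1 kb at 7 of 28 members in control cells (ALDOA, GAPDH, HK1, LDHA, PDHB, PGAM1 and TPI1; 12.6% of genes) and at 12 in starved cells (15.4%). Those that appeared were PFKFB3, PFKFB4, PFKL, PKM, SLC16A3 and TKT, and ALDOA dropped out. The count over both gene ends went from 15 to 11 over the same lists. In the 300-base promoter windows themselves, a called HDGF interval overlapped 4 members in control cells (ALDOA, HK1, LDHA and PGAM1; 3.51% of genes) and 7 in starved cells, where PFKFB4, PKM and SLC16A3 were added (7.41%). When each list was shortened to its 15639 strongest peaks, HDGF marked 4 members in control cells (ALDOA, PKM, SLC16A1 and TPI1; 3.77% of genes) and 5 in starved cells (PFKL, PGAM1, PKM, SLC16A3 and TKT; 6.85%).

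**Figure D4:**
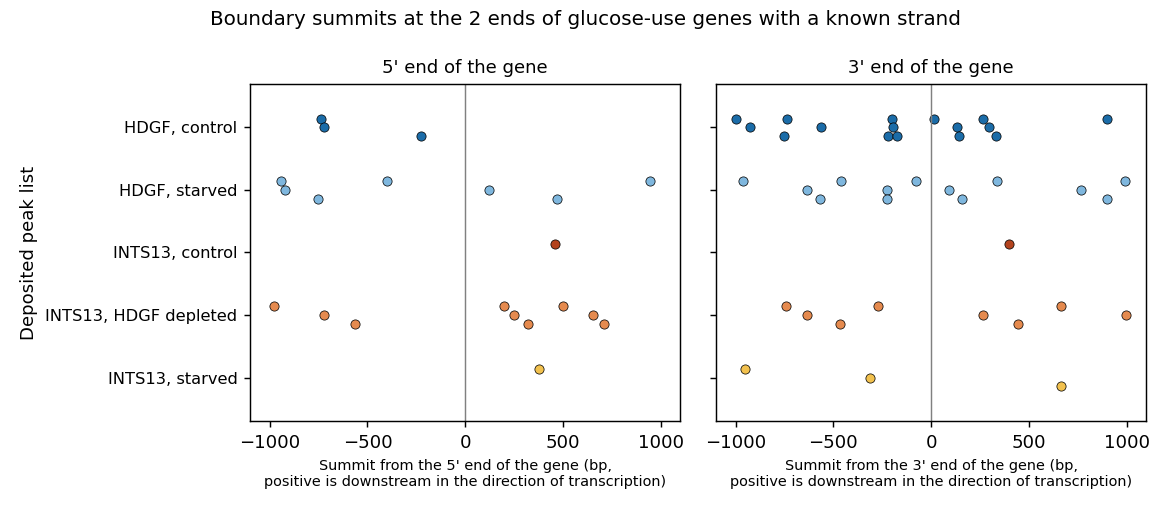
Position of every boundary summit at members of known strand, as distance in bp from the 5′ end (left) and the 3′ end (right), positive downstream, with 1 row per list. The HDGF control row has 3 summits at left and 16 at right, the HDGF starved row 7 and 13, and the INTS13 row after HDGF depletion 9 and 8.

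The second comparison asked where INTS13 lay after HDGF depletion. ALDOA and PKM had a boundary peak in both lists (3.88% of genes), 0 members lost one (0.893%) and 10 gained one (15.2%): GAPDH, PFKFB4, PFKM, PGAM1, PGD, PGK1, SLC16A1, TALDO1, TKT and TPI1. Coverage of the gene was higher at 25 members (45.4% of genes) and lower at 0 (1.24%). The depletion list was 105994 peaks long against 31233, its strongest member boundary peak had fold 3.85 with 19 reads, and with 15639 peaks in each list INTS13 marked 0 members after depletion (3.73% of genes) and 1 in control cells (ALDOA, 3%). Of the 15 members that HDGF marked in control cells, 9 had INTS13 after depletion (60%, 32.3 to 83.7; all such genes 46.9%), and of the other 16 members 3 did (18.8%, 4.05 to 45.6; 12.5%). Boundary peaks of the 2 proteins overlapped at 4 of the 9 (44.4%), ALDOA, TPI1, PKM and TKT, against 46.2% of all 1813 genes with both. INTS13 summits after depletion lay within 1 kb of the 5′ end at 6 members (21.4%; all genes 13.9%) and of the 3′ end at 8 (28.6%, 13.2 to 48.7; 10.8%).

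The last comparison asked where INTS13 lay in starved cells, with the change of antibody given above. The INTS13 control list is the same as in the depletion comparison. ALDOA and PKM had a boundary peak in both lists (2.56% of genes), 0 members lost one (2.22%) and PFKL gained one (4.16%), of fold 3.59 and 60 reads, 664 bp past its 3′ end. Coverage was higher at 5 members (PFKFB4, TKT, PKM, ALDOA and PFKL; 6.96% of genes) and lower at 2 (9.03%). At PFKL the difference, 2.04% against 28.1%, was found in a list that covered 0.262% of all gene sequence, against 0.378% in control cells.

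HDGF and INTS13 were set against each other within a condition. In control cells both marked ALDOA and PKM (2.98% of genes), without overlap of their boundary peaks: the nearest summits were 6767 bp apart at ALDOA and 1180 bp apart at PKM. Over all 598 genes with both, boundary peaks overlapped at 48.8%. In starved cells both marked PFKL and PKM (4.4% of genes), and the peaks overlapped at both genes, against 62.2% of all 881 genes with both. ALDOA was marked by INTS13 alone in starved cells because the nearest HDGF summit lay 1514 bp from an end. Its INTS13 boundary peaks there still overlapped called HDGF intervals. The other 13 of the 15 members marked by HDGF in control cells (86.7%, 59.5 to 98.3) had no boundary peak of INTS13 there, close to the share over all genes that HDGF marked (84.5%).

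Further genes of the pathway were counted in the same way. Of 38 other glucose pathway genes, HDGF marked 9 in control cells (23.7%, interval 11.4 to 40.2) and 9 in starved cells, and INTS13 marked 2, 7 and 4 in control, depleted and starved cells. Of 18 paralogs of the members that are known from other tissues, HDGF marked 4 in each condition (22.2%, 6.41 to 47.6) and INTS13 0, 3 and 1. For HDGF in control cells both shares lay between that of all genes (19.3%) and that of the members (48.4%), and the differences were not tested. Of 16 regulators of glucose genes, HDGF marked 6 in control cells (ARNT, HIF1A, MLX, PRKAA2, SP1 and TXNIP), or 37.5%. The interval of 15.2 to 64.6 holds the 19.3% of all genes. In starved cells HDGF marked 2 regulators (MLX and PRKAA2), and INTS13 marked 2, 5 and 1. For these counts the shares of all genes were 21.7% for HDGF in starved cells, and 4.77%, 19.1% and 6.71% for INTS13 in control, depleted and starved cells.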

How the data were processed

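ChIP-seq reads of 150 bp were deposited as peak lists, 1 for each of 5 ChIP groups of 2 labelled replicates. Per the submitters' processing notes the authors used FastQC, Trimmomatic, Bowtie, Picard and MACS2 with build hg38. For versions, settings, the combination of replicates and the role of inputs in peak calling, nothing is given in the sources used here. The 6 input samples were not analysed here. Each deposited peak has the authors' integer score, a fold enrichment (a ratio over background), a −log10 p and a −log10 q, and the summit offset. Folds and −log10 q served to describe and rank peaks inside their own list.

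Peaks off chromosomes 1 to 22, X and Y (7 to 30 per list) were left out. The folds and p-values of a list were fitted with a Poisson distribution of 1 mean, but how closely each p followed it was not recorded. Background and summit reads were derived from that mean, summit reads as whole numbers (tolerance 0.05 reads). The calculation was tested on simulated data. These reads are the only measure of depth used. Gene ends came from a RefSeq table of GRCh38.p14, and strands, start sites and sequences from its promoter table, matched by gene identifier. SLC2A3, SLC16A1 and PFKFB2 were not matched there. A boundary peak has its summit within 1 kb of a gene end, and a summit near several genes was counted for each. Coverage is the share of a gene's bases inside called intervals. Shares have exact (Clopper-Pearson) 95% intervals. With 1 list per group no test was made. Members with a boundary peak in 2 or more lists were described by position and fold, those with none by their nearest summit, and all 31 were accounted for. The members and gene lists were chosen with earlier results of these data known. Alternatives were windows of 500 and 2500 bp, any base of a peak in the window, −log10 q of at least 3, lists of equal length, start sites only and, added after seeing the data, the gene with the nearest end only. Python 3.11.15, pandas 2.3.3, numpy 2.4.6, scipy 1.17.1 and matplotlib 3.10.9 were used.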

Additional observations from a re-analysis of the deposited data

How the results depend on the processing

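Counts were compared by size alone, so a count that stayed close can hold other genes. Of 98 recomputed counts (14 counts under 7 alternatives), 62 were within 1.5 times the reported value and 36 were not. These 36 are given with the share of all genes in parentheses.

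With every list at 15639 peaks, HDGF marked 4 members in control (3.77%) and 5 in starved cells (6.85%), and INTS13 marked 1 in control (3%) and 0 after depletion (3.73%). In the HDGF comparison 1 was then kept (1.5%), 3 lost (2.27%) and 4 gained (5.35%), in the INTS13 depletion comparison 0 kept (1.49%), 1 lost (1.51%) and 0 gained (2.24%), and in INTS13 starvation 1 kept (1.84%) and 2 gained (4.87%). With start sites only, HDGF marked 7 in control cells (9.93%), with 6 kept (4.52%), 1 lost (5.41%) and 6 gained (7.65%) in starvation. INTS13 then had 1 kept (2.41%) and 1 lost (0.719%) after depletion and 0 gained in starvation (3.29%). These start-site shares are over all 20037 genes, with genes that lack a listed start counted as unmarked. Over the 15843 genes with one, the HDGF control share was 12.6%. With −log10 q of at least 3, INTS13 marked 1 in control (3.36%) and 7 after depletion (9.28%), with 6 kept (4.2%) and 3 gained (9.38%) for HDGF, 1 kept (2.41%) and 6 gained (6.87%) for INTS13 in depletion, and 0 kept (1.64%), 1 lost (1.72%) and 2 gained (2.96%) in INTS13 starvation. A window of 2500 bp gave 17 members for HDGF in starved cells (31.2%), 16 kept there (20.8%) and 2 gained for INTS13 in starvation (4.61%). A window of 500 bp gave 7 members for INTS13 after depletion (11.8%) with 5 gained (9.49%), and 0 gained in starvation (3.56%). With the nearest end only, INTS13 in starvation had 1 kept (2.17%) and 1 lost (ALDOA, 2.1%). Any base of a peak in the window changed no count by over 1.5 times, but among the lost HDGF genes it put LDHA in the place of ALDOA. The 1 gained HDGF gene was SLC16A3 as reported, TPI1 with 500 bp and PFKFB2 with 2500 bp. With 2500 bp the 4 lost HDGF genes were DLAT, PFKP, SLC2A1 and SLC2A3, of which 2 were among the reported 5. ALDOA, ENO2 and SLC16A1 were then kept. Of the 5 lost with −log10 q of at least 3, 3 were among those reported.

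No paired analysis was possible because each group has 1 deposited list, and leaving out a replicate could not be run for the same reason. The weakest peak held 12 reads in the INTS13 depletion list and 40 in the INTS13 starvation list, over backgrounds of 4.2 and 15.2 reads. As folds these minima were close, at 2.5 and 2.43. No weaker signal was called in either list.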

Other observations

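High-ranking INTS13 peaks lay at PDHX, which encodes a structural subunit of the pyruvate dehydrogenase complex and stands outside the 31 members. By fold the strongest stood at percentile 99.2 of the control, 99.4 of the depletion and 95.1 of the starvation list. INTS13 was called within the gene near its 5′ end in control cells (fold 6.08, −log10 q 17.9, 44 reads), after HDGF depletion (fold 5.39, 27 reads) and in starved cells (fold 4.05, 68 reads), with summits 85, 107 and 50 bp from a listed start. These summits were nearer to an end of APIP, the gene on the other side, than to the end of PDHX. No boundary peak of HDGF was called at PDHX in either condition. ADPGK, a glucokinase that uses ADP, had an HDGF control peak of fold 2.60 past its 3′ end and INTS13 upstream of its 5′ end after depletion (fold 3.08) and in starved cells (fold 4.34, −log10 q 9.12, 73 reads). TXNIP, which restrains glucose uptake, had HDGF at its 3′ end in control cells (fold 2.73) and INTS13 271 bp upstream of its 5′ end in control cells (fold 2.84) and 325 bp upstream after depletion (fold 3.27). At both ADPGK and TXNIP the 2 proteins were called at opposite ends of the gene.

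PGM1, which links glycogen and glycolysis, had HDGF at its 3′ end in both conditions, with strongest folds of 2.99 and 3.16, and in starved cells also at its 5′ end (fold 2.90). INTS13 lay at its 3′ end in control cells (fold 3.78) and upstream of its 5′ end after depletion (fold 3.66). These genes were named because they had a boundary peak in 2 or more lists, and their differences between lists were not tested.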
